A study of Mus musculus with 8 samples.

Results

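The 33 mouse genes described here make, activate, transfer, modify and remove sialic acid, the charged sugar that caps many cell surface and secreted glycans. They were taken from a list of symbols, and all 33 were found among the 52143 genes measured in distal colon. The choice of symbols uses no measured value, although the list was drawn up with earlier results of these data known. Where a symbol had more than 1 row (St6gal2 and St6galnac2), the row of highest mean was taken. Control mice carried Villin1-Cre-ERT, a tamoxifen-activated Cre recombinase whose promoter works in the villus and crypt epithelium of small and large bowel alike. Siglec-XII mice (SIGLEC12-Villin1-Cre-ERT) carried the same Cre and, in addition, 1 floxed copy of human SIGLEC12 in the ROSA26 locus, behind a CAG promoter and an EGFP stop cassette that Cre removes. All were females given tamoxifen (10 mg/ml) from 8 weeks of age on 5 consecutive days, and colons were collected on day 12, 7 days after the last injection. There were 4 control and 4 Siglec-XII samples. The labels do not say that each sample is a separate animal, the design text speaks of 3 mice per condition, and the methods describe 3 technical libraries made from each sample. Some of the 4 samples of a group may therefore be repeats of the same animal, and P values measure only the spread between these samples, which may be technical. Human Siglec-XII lacks the arginine with which other Siglecs hold sialic acid.

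Sialic acid is made in the cytosol from UDP-GlcNAc, charged with CMP in the nucleus, carried into the Golgi and passed by sialyltransferases to galactose, to N-acetylgalactosamine (GalNAc) or to another sialic acid. A transferase family is named after its main linkage, and single members can use other acceptors. ST3Gal enzymes make α2,3 bonds to galactose, ST6Gal enzymes α2,6 bonds to galactose, ST6GalNAc enzymes α2,6 bonds to GalNAc, and ST8Sia enzymes α2,8 bonds between sialic acids. In the colon the sugar is abundant on mucins, where it shields the mucus layer from bacterial enzymes, and it is what Siglecs and many microbial lectins bind.

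Values are given as TPM, a share of each library corrected for transcript length, so levels of different genes can be set side by side. Differences between groups are on the log2(TPM + 1) scale. They come from a limma fit over 13164 genes, those that reached 1 TPM in 4 or more samples, with P adjusted over all of them. Sequencing depth cannot be read from TPM, so no counting error is given and precision rests on the 4 samples per group. SIGLEC12, EGFP and Cre have no row, which leaves the group labels unchecked by the transgene itself. All 8 epithelial markers (Epcam, Krt8, Vil1 and others) passed the filter, with a summed level of 8884 to 12645 TPM in controls and 8473 to 12065 TPM in Siglec-XII samples. The median of the tested genes lay lower in Siglec-XII samples 3 and 4 than in the other 6 samples, and the median difference over all tested genes was -0.15 log2 units. Centring each sample on its median moved the difference of all 18 tested members upwards and the median over all tested genes to 0.06, so the direction of small differences depends on the scale.

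Levels in the control colon were very uneven along the pathway, and each role except breakdown had at least 1 gene with a mean of 1 TPM or more. Of the 33 members, 20 reached a mean of 1 TPM in the controls, 15 reached 10 TPM and 6 reached 100 TPM. These 6 were, from the highest, St6galnac6, Nans, St3gal4, Gne, Cmas and St3gal6. At the other end, 12 members stayed under 1 TPM in all 8 samples.

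**Figure D1:**
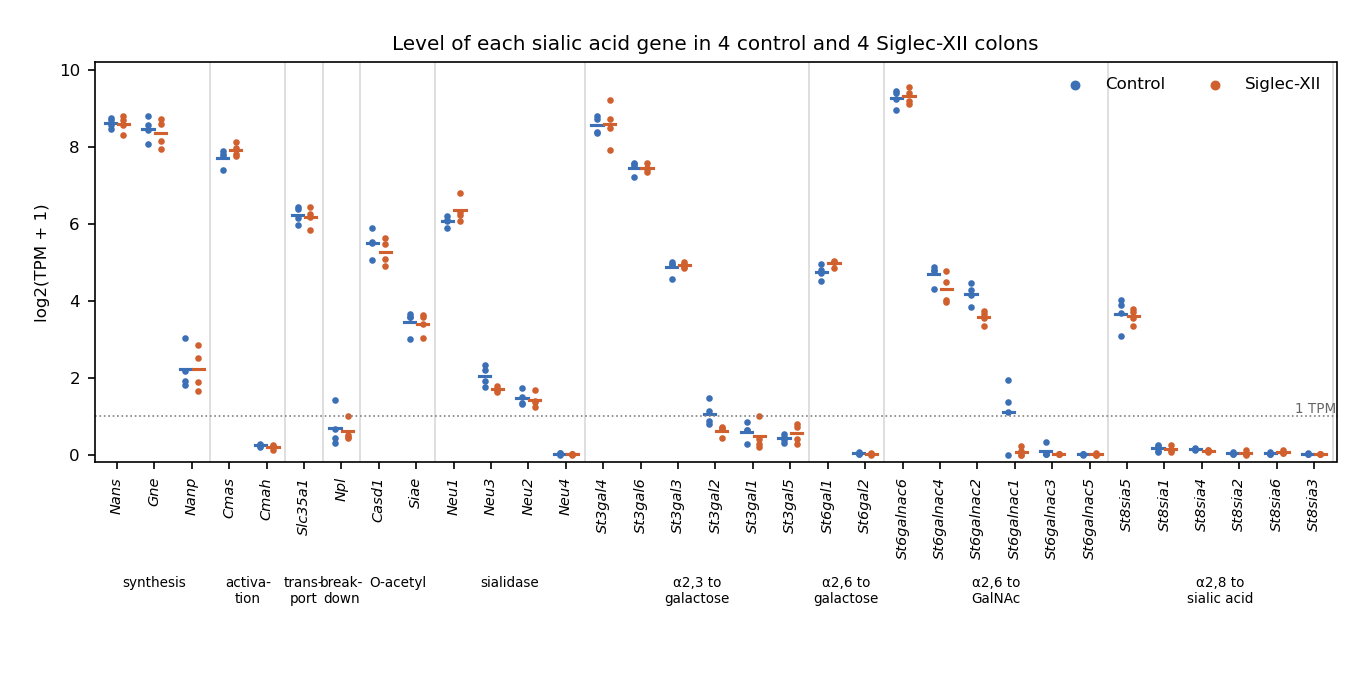
Points show log2(TPM + 1) of each of the 33 genes (horizontal axis, grouped by role) in 4 control (blue) and 4 Siglec-XII (orange) samples, with short lines at the group means and a dotted line at 1 TPM. The genes span from St6galnac6, at 617 TPM in the controls, to genes near 0, and the blue and orange points overlap in all of them except St6galnac2 and St3gal2.

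The 3 enzymes that build the sugar were not equally abundant. Gne, whose product is the bifunctional epimerase and kinase that opens and limits the pathway, stood at 270, 381, 445 and 345 TPM in control samples 1 to 4. Nans, the synthase of the phosphorylated sugar, stood at 381, 426, 410 and 354 TPM. Nanp, the phosphatase between these steps and the free sugar, stood at 2.51, 3.47, 7.10 and 2.77 TPM, far below both in every control. The Nanp value is uncertain, because 48.3% of its 31-base windows also occur in Gm6741, a processed pseudogene on another chromosome that was listed at 14.1 ± 3.13 TPM (SD, n = 4) in the same controls.

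Activation and hydroxylation of the sugar were at opposite ends of the scale. Cmas, which charges N-acetylneuraminic acid (Neu5Ac) with CMP, stood at 166, 237, 216 and 223 TPM in the controls. Cmah, which hydroxylates CMP-Neu5Ac to CMP-Neu5Gc and has been lost in humans, stood at 0.155, 0.207, 0.176 and 0.180 TPM. Within a control sample Cmas was 1070 to 1234 times Cmah, and in the Siglec-XII samples 1195 to 2593 times. The highest Cmah level in the 8 samples was 0.207 TPM. Part of the Cmah sequence, 15.02% of its windows, also occurs in other genes.

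The promoters of Cmas and Cmah are shown with that of St3gal4, the most abundant α2,3 transferase, to set the sequence beside levels that differ this much. Each run is the 250 bases before the transcript start of the RefSeq annotation (build GRCm38.p6), 5′ to 3′ on the strand of the gene, in lower case with every CG pair in capitals. They lie at chr9:35116865-35117114 on the minus strand for St3gal4, chr6:142756436-142756685 on the plus strand for Cmas and chr13:24327154-24327403 on the plus strand for Cmah.
St3gal4: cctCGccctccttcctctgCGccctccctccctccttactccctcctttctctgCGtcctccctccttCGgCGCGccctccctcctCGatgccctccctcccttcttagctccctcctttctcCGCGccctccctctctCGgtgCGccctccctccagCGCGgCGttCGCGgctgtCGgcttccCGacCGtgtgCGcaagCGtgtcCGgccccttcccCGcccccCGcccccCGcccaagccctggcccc
Cmas: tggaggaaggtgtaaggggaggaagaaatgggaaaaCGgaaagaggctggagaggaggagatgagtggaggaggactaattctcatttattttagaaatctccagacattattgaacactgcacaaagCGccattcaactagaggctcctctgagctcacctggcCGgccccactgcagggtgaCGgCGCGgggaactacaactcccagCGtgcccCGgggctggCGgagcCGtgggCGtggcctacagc
Cmah: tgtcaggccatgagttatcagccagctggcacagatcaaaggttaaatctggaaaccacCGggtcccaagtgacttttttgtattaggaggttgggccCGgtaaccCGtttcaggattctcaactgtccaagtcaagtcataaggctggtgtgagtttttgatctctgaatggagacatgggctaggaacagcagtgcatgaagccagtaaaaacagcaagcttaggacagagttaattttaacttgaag

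These windows hold 25 CG pairs for St3gal4, 11 for Cmas and 3 for Cmah. The contrast did not extend to the other members. Over the longer 300-base windows (the same 250 bases and the first 50 of the transcript) that could be matched for 23 of the 33 members, the median was 20 CG pairs in the 11 members with a mean control level of 10 TPM or more, and also 20 in the 10 members under 1 TPM. The median over all 32817 promoters of the table was 7. The GC box letters GGGCGG, searched on both strands, were in 17 of the 23 member windows (73.9%) and in 35.6% of all promoters. St8sia6, at 0.022 TPM, had 39 CG pairs in its window, more than any other matched member, and St6galnac6 had 2, in the only window listed for it, which lies 7317 bases from the start of its principal transcript. The TATAAA letters, searched likewise, were in 1 member window, that of Slc35a1.

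Slc35a1, the carrier that brings CMP-sialic acid into the Golgi, stood at 60.99, 82.5, 84.9 and 69.7 TPM in the controls. Casd1, which adds O-acetyl groups to sialic acid, stood at 32.2, 58.5, 45.2 and 44.5 TPM, and Siae, the esterase that removes them, at 7.08, 10.9, 11.6 and 10.8 TPM. Casd1 was 3.89 to 5.37 times Siae within a control. The Siae gene overlaps Tbrg1 (mean 111 TPM in the controls) on the opposite strand and shares 6.84% of its windows with it. Npl, the lyase that breaks free sialic acid down, lay between 0.230 and 1.67 TPM and was at 1 TPM or more in a single sample of the 8, control 4.

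Among the 4 sialidases, which cut sialic acid off, Neu1 was by far the most abundant. Neu1, the lysosomal enzyme, stood at 72.1, 68.01, 58.3 and 66.7 TPM in the controls. Neu3, which acts on gangliosides of the plasma membrane, stood at 3.601, 2.77, 2.40 and 4.05 TPM, and Neu2, the cytosolic enzyme, at 1.55, 1.82, 2.32 and 1.49 TPM. Neu4 was at most 0.030 TPM in any of the 8 samples. The control ranges of Neu1, Neu3 and Neu2 did not overlap each other. Neu2 overlaps Ngef on the opposite strand, and 3.56% of its windows are shared with that gene.

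Of the 20 sialyltransferases, 3 held nearly all of the sialyltransferase TPM. St6galnac6 held 47.8% ± 2.84 of it, St3gal4 29.7% ± 3.18 and St3gal6 13.7% ± 0.575 (SD, n = 4 controls). Together they held 91.2% ± 0.711 in the controls and between 90.2% and 93.1% in each of the 8 samples. The other 17 enzymes shared the rest, led by St3gal3, St6gal1, St6galnac4, St6galnac2 and St8sia5.

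By enzyme family, the 2 large classes in the controls were those named α2,6 to GalNAc with 51.3% ± 2.75 and α2,3 to galactose with 45.7% ± 2.78. The α2,6 to galactose class held 2.02% ± 0.0945 and the α2,8 class 0.945% ± 0.175. A transcript share is no measure of linkages made. The class names follow the enzyme family, and the acceptor that an enzyme of a class used was not measured. The α2,6 to GalNAc class was almost entirely St6galnac6 (93.4% of the class), an enzyme that forms α-series gangliosides and disialyl Lewis a and is not the one that makes sialyl-Tn.

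**Figure D2:**
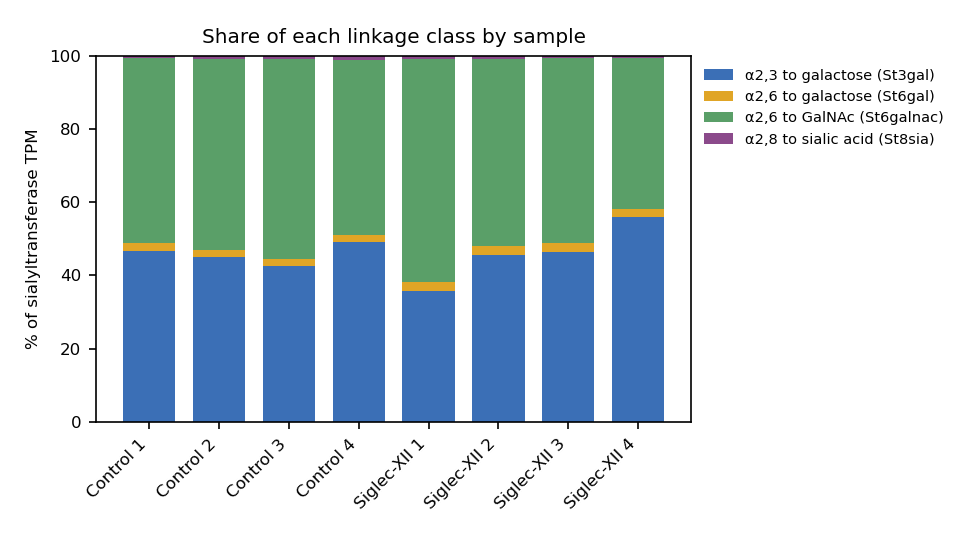
Stacked bars give the percent of summed sialyltransferase TPM (vertical axis, 0 to 100) held by each linkage class in each of the 8 samples. The α2,3 and the GalNAc classes fill nearly all of every bar, and the α2,3 share runs from 35.8% in Siglec-XII sample 1 to 55.9% in Siglec-XII sample 4, against 42.4% to 49.0% in the controls.

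In the α2,3 family the levels differed sharply between genes, and acceptor use was not measured. St3gal4 and St3gal6, which act on the Gal-GlcNAc ends of N-glycans and of sialyl Lewis chains, stood at 327, 421, 335 and 448 TPM and at 148, 188, 189 and 179 TPM. St3gal3, which shares this acceptor, stood at 22.7, 31.3, 29.7 and 29.9 TPM. The other genes of the family were low. St3gal1 and St3gal2, which sialylate core 1 O-glycans, lay between 0.205 and 0.801 TPM and between 0.723 and 1.76 TPM, and St3gal5, which makes the ganglioside GM3, between 0.238 and 0.455 TPM. St3gal4 was 525 to 1634 times St3gal1 within a control.

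Of the α2,6 transferases for galactose, St6gal1 stood at 21.9, 29.7, 27.0 and 25.2 TPM and St6gal2 at no more than 0.049 TPM in the controls. St3gal4 was 12.4 to 17.8 times St6gal1 in each control, although both cap Gal-GlcNAc ends.

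The α2,6 to GalNAc family ran from the highest to the lowest member of the whole pathway. St6galnac6 (GRCm38 chr2:32599709-32620806, plus strand) stood at 492, 696, 673 and 608 TPM. Its neighbour St6galnac4 ends 10 bases before the outermost annotated start of St6galnac6, on the same strand. The principal transcript of St6galnac6 starts 7317 bases from that outermost start. St6galnac4, which also makes disialylated chains, stood at 26.7, 26.3, 28.4 and 18.7 TPM. In the controls St6galnac6 was 18.4 to 32.5 times this neighbour. St6galnac2, which sialylates the GalNAc of core 1 O-glycans, stood at 20.98, 18.6, 13.3 and 16.8 TPM. St6galnac1, the enzyme that makes the mucin epitope sialyl-Tn, stood at 2.80, 1.14, 0 and 1.60 TPM. This value is uncertain, since 42.1% of its windows occur also in the pseudogene Gm11735. St6galnac3 and St6galnac5 were at most 0.247 TPM in every sample.

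The α2,8 family was represented by a single gene. St8sia5, which extends gangliosides, stood at 7.47, 13.8, 11.9 and 15.1 TPM in the controls. St8sia1 (GD3 synthase), St8sia2 and St8sia4 (the polysialic acid synthases), St8sia3 and St8sia6 were each at most 0.188 TPM in all 8 samples. St8sia1 lies 45830 bases from Cmas on chromosome 6, and the pair differ from 0.119 to 210 TPM.

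The order of the control means was firm in some places and not in others. Ranges over the 4 controls did not overlap between St6galnac6 and Nans, between Gne and Cmas, between St3gal6 and Slc35a1, or between Casd1 and St3gal3. Cmas and St3gal6 (210 and 176 TPM), St3gal3 and St6gal1 (28.4 and 26.0 TPM) and St6galnac4 and St6galnac2 (25.0 and 17.4 TPM) had overlapping ranges, but the first of each pair was higher within each of the 4 controls. Nans, St3gal4 and Gne (393, 383 and 360 TPM) overlapped and each was above the next in 3 of 4 controls, as was Slc35a1 above Neu1 (74.5 and 66.3 TPM). St6gal1 was above St6galnac4 in 2 of 4 controls.

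Siglec-XII expression was compared with control to ask whether the machinery differed. No member passed the adjusted threshold of 0.05. By limma, 5 of 13164 genes did (0.038%). At an unadjusted P of 0.05, 2 of the 18 tested members were lower in Siglec-XII samples, St6galnac2 and Neu3, and 0 were higher. Of all tested genes 8.87% passed this P, 7.67% lower and 1.19% higher. This balance was that of the deposited scale. After median centring 80.0% of the all-gene calls were higher, and the member calls were 1 lower (St6galnac2) and 4 higher (Cmas, St3gal3, St6gal1 and St6galnac6). No tested member passed a fold change of 2 together with this P, as 0.919% of all tested genes did. The median difference of the 18 was -0.04, beside -0.15 over all tested genes. On the deposited scale 6 members were above 0 and 12 below, where 21.9% of all tested genes were above 0. After median centring 14 members were above 0, where 61.5% of all tested genes were. The other 15 members were under the filter on low values and were not tested.

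**Figure D3:**
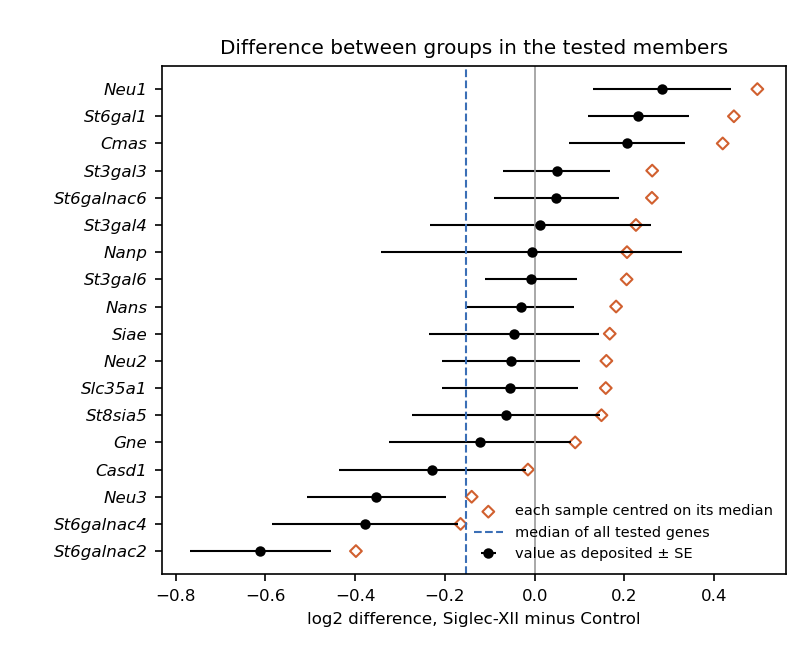
Filled points with bars give the log2 difference (Siglec-XII minus control) and its SE for the 18 tested members, and open diamonds the difference after each sample was centred on its median. St6galnac2 lies lowest at -0.61, the dashed line marks the median of all tested genes at -0.15, and 14 of the 18 points lie to its right.

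Among the 18 tested members St6galnac2 differed most on the deposited scale. It stood at 20.98, 18.6, 13.3 and 16.8 TPM in the controls and at 11.6, 12.3, 10.8 and 9.21 TPM in the Siglec-XII samples. Every Siglec-XII sample was below every control, and St6galnac2 was the single tested member whose groups did not overlap, as they did not in 5.11% of all tested genes (4.06% lower, 1.05% higher). The log2 difference was -0.61 (SE 0.156), with an unadjusted limma P of 0.0035 and an adjusted p = 0.515. A two-sided exact permutation test over the 70 labelings gave p = 0.0286, the smallest that 4 against 4 samples can give, and the same test is quoted for the members below. After median centring the difference was -0.40. The gene (ENSMUSG00000057286, GRCm38 chr11:116675303-116694868, minus strand) has a second, shorter row of the same symbol, at 0.284 to 1.048 TPM, and the sum of both rows gave -0.62.

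1810032O08Rik overlaps the 3′ part of St6galnac2 on the opposite strand and shares 8.12% of its windows. It stood at 12.01, 10.1, 6.46 and 11.2 TPM in the controls and 9.08, 5.80, 10.9 and 11.4 TPM in the Siglec-XII samples, a difference of -0.09 (SE 0.239, limma adjusted p = 0.856). The groups of this partner overlapped widely.

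**Figure D4:**
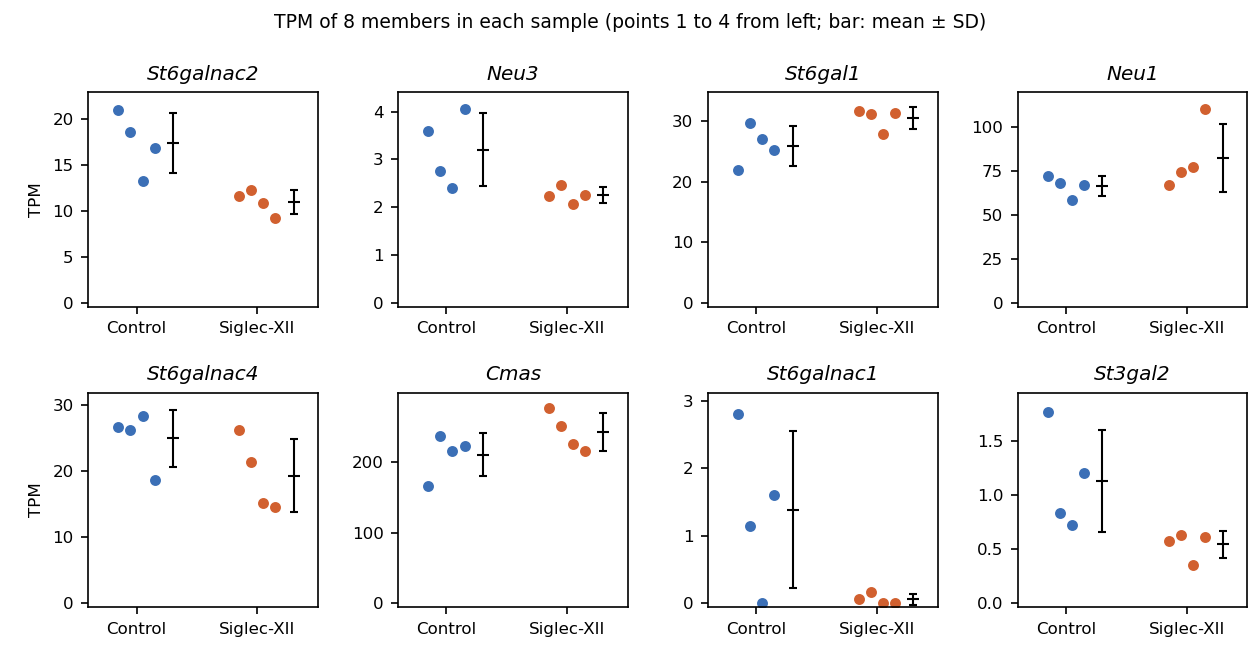
Each panel gives the TPM of a gene in the control (blue) and Siglec-XII (orange) samples, numbered 1 to 4 from the left, with the mean and SD as a bar. The groups are apart in St6galnac2, and in St3gal2, which was under the filter on low values, and they overlap in Neu3, St6gal1, Neu1, St6galnac4, Cmas and St6galnac1.

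Neu3 stood at 3.601, 2.77, 2.40 and 4.05 TPM in the controls and at 2.22, 2.46, 2.08 and 2.25 TPM in the Siglec-XII samples. The groups overlapped by 1 sample of each. The log2 difference was -0.35 (SE 0.155, limma P = 0.0482, adjusted p = 0.515, exact permutation p = 0.0571), and after median centring it was -0.14 (adjusted p = 0.725). Leaving out 1 sample kept the direction, but with any sample other than control 3 left out the unadjusted P was between 0.0505 and 0.141.

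Neu1 pointed the other way. It stood at 66.7, 74.3, 77.3 and 110.2 TPM in the Siglec-XII samples against 58.3 to 72.1 TPM in the controls, a log2 difference of 0.28 (SE 0.154, limma P = 0.0982, adjusted p = 0.515, exact permutation p = 0.114). Sample 4 was the highest, and without it the difference was 0.13, while median centring gave 0.50. The ratio of Neu1 to Neu3 was 16.5 to 24.6 in the controls and 30.0 to 49.0 in the Siglec-XII samples, without overlap. It sets a member that was higher against one that was lower, and no test was made. Among single tested genes 5.11% did not overlap between the groups, and the share among gene pairs was not computed.

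St6gal1 stood at 31.7, 31.2, 27.9 and 31.3 TPM in the Siglec-XII samples, with 3 of the 4 above every control. The log2 difference was 0.23 (SE 0.113, limma P = 0.0717, adjusted p = 0.515, exact permutation p = 0.0571), and 0.44 after median centring. As a share of sialyltransferase TPM, the α2,6 to galactose class was 1.88% to 2.08% in the controls and 2.24% to 2.44% in the Siglec-XII samples. These shares did not overlap, and they have no test because they are a score over chosen genes. St6gal1 made up 99.9% of the class in the controls, and its own TPM overlapped between the groups. Among single tested genes 5.11% did not overlap.

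St6galnac4 stood at 26.2, 21.4, 15.1 and 14.7 TPM in the Siglec-XII samples, the last pair below every control. The log2 difference was -0.38 (SE 0.207, limma P = 0.101, adjusted p = 0.515, exact permutation p = 0.171). Without Siglec-XII samples 3 and 4 it was -0.06, and after median centring -0.17. Cmas stood at 275, 251, 226 and 215 TPM, a difference of 0.21 (SE 0.130, limma P = 0.146, adjusted p = 0.522, exact permutation p = 0.20), which was 0.42 after median centring (adjusted p = 0.459). Neither passed an unadjusted P of 0.05 on the deposited scale.

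Casd1 and Gne were below control on the deposited scale, with a log2 difference of -0.23 (SE 0.209, limma P = 0.305, adjusted p = 0.612, exact permutation p = 0.371) for Casd1 and -0.12 (SE 0.203, limma P = 0.561, adjusted p = 0.772, exact permutation p = 0.657) for Gne. Casd1 stood at 48.1, 43.3, 32.96 and 28.9 TPM in the Siglec-XII samples and Gne at 419, 386, 285 and 245 TPM. In both genes samples 3 and 4 were the lowest of the Siglec-XII samples. After median centring the differences were -0.02 for Casd1 and 0.09 for Gne, so the sign of Gne depended on the scaling. It also depended on Siglec-XII sample 4, without which the Gne difference was 0.01.

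The 3 abundant transferases differed little in mean on the deposited scale. St3gal4 stood at 242, 424, 355 and 588 TPM in the Siglec-XII samples, reaching below and above every control, and its difference was 0.01 (SE 0.245). St6galnac6 stood at 751, 672, 578 and 550 TPM, a difference of 0.05 (SE 0.140), and St3gal6 at 191, 174, 171 and 162 TPM, a difference of -0.01 (SE 0.102). After median centring the differences were 0.23 for St3gal4, 0.26 for St6galnac6 and 0.20 for St3gal6, of which that of St6galnac6 passed an unadjusted P of 0.05. The ratio of St6galnac6 to St3gal4 was 1.36 to 2.01 in the controls and 0.934 to 3.11 in the Siglec-XII samples. The remaining tested members (Nans, Nanp, Slc35a1, Siae, Neu2, St3gal3 and St8sia5) differed by -0.06 to 0.05, and by 0.15 to 0.26 after median centring.

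Of the members under the filter on low values, St6galnac1 stood at 2.80, 1.14, 0 and 1.60 TPM in the controls and at 0.067, 0.163, 0 and 0 TPM in the Siglec-XII samples. Control 3 was listed at 0 like Siglec-XII samples 3 and 4, so the groups overlapped. St3gal2 stood at 1.76, 0.8286, 0.723 and 1.20 TPM in the controls and at 0.575, 0.630, 0.354 and 0.610 TPM in the Siglec-XII samples, with every Siglec-XII sample below every control. Among the tested genes 4.06% were lower without overlap, a share that does not cover genes under the filter. In a fit with no filter, the log2 difference of St6galnac1 was -1.02 (limma adjusted p = 0.682). That of St3gal2 was -0.44 (limma adjusted p = 0.682), so its separation did not pass adjustment. Cmah stood at 0.172, 0.153, 0.087 and 0.180 TPM in the Siglec-XII samples, which overlapped the controls.

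Samples varied together in a way the groups do not describe. In 8 of the 18 tested members (Gne, Nanp, Casd1, Siae, St3gal3, St3gal6, St6galnac6 and St8sia5) the 3 lowest samples were control 1 and Siglec-XII samples 3 and 4, a share of 44.4%, beside 33.6% of all tested genes. St6galnac2 and Neu3 did not follow this pattern, since control 1 was the highest or next to the highest sample in both. Leaving out these 3 samples together, the St6galnac2 difference was -0.40, still past an unadjusted P of 0.05 (limma adjusted p = 0.93).

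**Figure D5:**
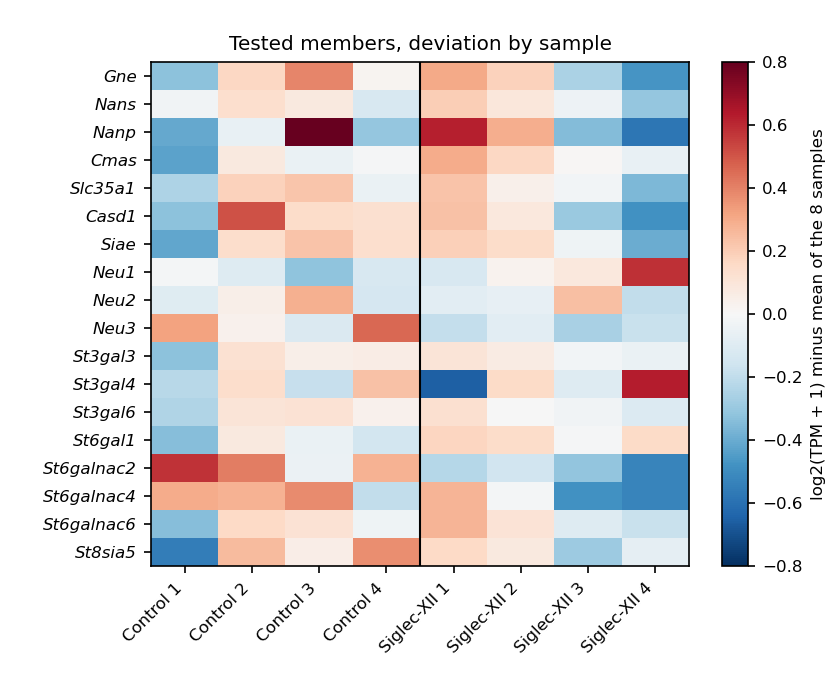
Colours give log2(TPM + 1) of each tested member in each sample minus its mean over the 8 samples, from -0.65 (blue) to 0.80 (red). Control 1 and Siglec-XII samples 3 and 4 are blue for most synthesis genes, while St6galnac2 is red in 3 controls and blue in all Siglec-XII samples.

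The summed levels of the smooth muscle, leukocyte and endothelial markers differed in range between the groups, and their part in the member results was not tested. In bulk tissue, fewer cells of a type and less RNA per cell cannot be told apart. All 6 smooth muscle markers tested had a difference below 0, 3 of them at an unadjusted P of 0.05. Of all tested genes only 21.9% were above 0, and 7.67% were lower at this P. The summed level of these 6 markers was 623 to 1003 TPM in the controls and 303 to 651 TPM in the Siglec-XII samples. The 8 leukocyte markers summed to 5.02 to 20.98 TPM in the controls and 2.44 to 3.71 TPM in the Siglec-XII samples, but 1 of the 8 was tested and did not pass, and 7 overlapped between the groups. The endothelial markers summed to 2.07 to 3.32 and 1.24 to 1.52 TPM. None of the 8 epithelial or 7 goblet cell markers passed an unadjusted P of 0.05. No tested fibroblast, adipocyte or neuron and glia marker did.

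For the steps around the members, counts are set beside the shares over all tested genes and were not tested as sets. Of all tested genes 8.87% passed an unadjusted P of 0.05, 7.67% lower and 1.19% higher. UDP-GlcNAc supply had 0 of 7 tested genes (of 8) past an unadjusted P of 0.05, and the lysosomal partners of Neu1 (Ctsa, Glb1 and the sialic acid exporter Slc17a5) 0 of 3. Of the 12 tested acceptor-chain genes (of 13), 1 was lower and 0 were higher. This gene, B4galnt1, encodes the synthase of the gangliosides GM2 and GD2 and stood at 11.7, 5.51, 2.45 and 6.56 TPM in the controls and 2.98, 3.78, 1.78 and 1.92 TPM in the Siglec-XII samples. Its groups overlapped, and its log2 difference was -0.95 (SE 0.366, limma adjusted p = 0.515). C1galt1c1, which did not pass and was named after its values were seen because its groups did not overlap, encodes the chaperone of the core 1 synthase and stood at 36.6, 44.6, 42.4 and 41.7 TPM in the controls and 50.1, 47.9, 47.0 and 45.2 TPM in the Siglec-XII samples. Its log2 difference was 0.20 (SE 0.092, limma adjusted p = 0.515). Of all tested genes 5.11% did not overlap between the groups, 1.05% higher and 4.06% lower.

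Transcripts for the readers of sialic acid were scarce in these samples, where 1 of the 8 leukocyte markers passed the filter. None of the 9 mouse Siglec genes passed the filter, and the highest value of any of them in any sample was 0.827 TPM. Siglece, an inhibitory receptor of myeloid cells, stood at 0.387, 0.550, 0.258 and 0.167 TPM in the controls and at 0.092, 0.147, 0.077 and 0.021 TPM in the Siglec-XII samples. Siglece was also named after its values were seen. Its groups did not overlap, at levels under the filter, beside the ranges of the leukocyte markers given above. The 4.06% of tested genes that were lower without overlap do not include genes under the filter.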

How the data were processed

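RNA of whole distal colon was sequenced in 4 samples of each group, and samples were grouped by their labels, which give no batch or date. The authors quantified transcripts with kallisto and deposited 1 log2(TPM + 1) value per gene and sample. The labels' processing notes name kallisto 0.45.0 and GRCm38. The study's methods name another kallisto version and a human reference genome, while the deposited genes carry mouse Ensembl identifiers. The library kit also differs between the labels (total RNA) and the study's methods (mRNA). No value was adjusted between samples.

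A repeated symbol was represented by its row of highest mean. Groups were compared by a moderated linear model with a mean-variance trend (limma 3.58.1, R 4.3.3), with Benjamini-Hochberg adjustment over all 13164 tested genes. Two-sided exact permutation tests (scipy 1.17.1, Python 3.11.15) were run for tested members. Adding 1 to TPM understates the change of low genes. Gene positions are those of GENCODE M21 on GRCm38, promoters those of RefSeq. Shared windows are 31-base stretches of a gene's transcripts that also occur in another gene. Full statistics are given for the 8 tested members with the smallest P. The members and lists were chosen with earlier results of these data known. Alternatives were other filters (none, or a TPM of 5), a pseudocount of 0.1, quantile normalization, median centring, array weights, the sample number as a block, and samples left out.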

Additional observations from a re-analysis of the deposited data

Results flagged for a closer look

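In 42 groups of 4 samples (the members with their values in each group), 4 had 1 sample set far apart from the other 3, where chance gives about 2.1, or 1 in 20. The share of the group's whole range taken by the gap was 0.882 for Npl, where Siglec-XII sample 1 stood at 0.993 TPM and the other 3 between 0.359 and 0.422 TPM. It was 0.880 for St6gal1, where Siglec-XII sample 3 stood at 27.9 TPM below the other 3. Control 1 was the low sample in Siae (0.861, at 7.08 TPM) and in St3gal3 (0.834, at 22.7 TPM). Control 1 was also among the 3 lowest samples of both genes over all 8.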

How the results depend on the processing

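No member passed an adjusted p of 0.05 in any of 17 alternatives. St6galnac2 was lower at an unadjusted P of 0.05 in all 17, with a log2 difference of -0.73 to -0.40 and an adjusted p of 0.192 to 0.991. Gne changed sign under median centring (0.090), array weights (0.026), without Siglec-XII samples 3 and 4 (0.18), without these and control 1 (0.049, chosen after seeing the data) and without Siglec-XII sample 4 (-0.25 to 0.014 over single samples left out), and Casd1 without Siglec-XII samples 3 and 4 (0.047). Members past an unadjusted P of 0.05 numbered 5 with median centring (St6galnac2, Cmas, St3gal3, St6gal1 and St6galnac6) and 1 (St6galnac2) with a TPM filter of 5, a pseudocount of 0.1, the replicate block or without Siglec-XII samples 3 and 4, 3 with quantile normalization or array weights (St6galnac2, Cmas and St6gal1) and 3 with no filter (St6galnac2, St6galnac1 and St3gal2), 2 without all 3 samples (St6galnac2 and Cmas), against 2 on the deposited scale (St6galnac2 and Neu3), and 1 to 3 with 1 sample left out, where St6gal1 passed without control 2, St6galnac4 without control 4, and Neu1 and St6galnac4 without Siglec-XII sample 1. Members higher in Siglec-XII samples numbered 14 of 18 with median centring, 13 of 18 with quantile normalization or without samples 3 and 4, 10 of 18 without all 3 samples, and 3 to 12 with 1 sample left out, against 6 of 18. With no filter they were 10 of 33, 4 of them among the 15 added low genes. With no filter 1 member (St6galnac1) also passed a fold change of 2.

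Over all genes, 5 passed an adjusted p of 0.05, 3 without filtering or above 5 TPM, 18 under array weights, 2 without Siglec-XII samples 3 and 4 or all 3 samples, and 2 to 6 with 1 sample left out. Of the 1167 at an unadjusted P, 13.5% were higher, against 63.3% of 1112 with quantile normalization and 80.0% of 1422 with median centring, and the other counts were 2043 with no filter, 699 above 5 TPM, 1851 under array weights, 362 (42.8% higher) without samples 3 and 4, 683 (32.5% higher) without all 3, and 483 to 2365 with 1 sample left out. With a fold change of 2 the 121 became 63 above 5 TPM, 204 with 0.1 as the pseudocount, 77 with quantile normalization, 74 with median centring, 54 without samples 3 and 4, 68 without all 3, and 65 to 324. Causes were not tested. The sample numbers did not pair the samples (correlations of same-numbered samples -0.20 to 0.10), and the block changed 1 member call, that of Neu3.

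When 1 control was left out, 18 to 20 members reached a mean of 1 TPM. The mean α2,3 to galactose share was then 44.7% to 46.9% and the α2,6 to GalNAc share 50.2% to 52.4%. A mean over 4 samples can move only little when 1 is left out, so these ranges do not measure the spread between samples. The 4 samples per group and an unknown depth limit the precision.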
